A study of Mus musculus with 2 samples.

Results

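The genes described here encode the neuregulins and the ErbB receptors. Neuregulins are growth factors with an EGF-like domain, made as membrane proteins or shed from the cell surface, and axons carry neuregulin 1 to the glia that travel along them. ErbB3 and ErbB4 bind neuregulins, ErbB2 binds no known ligand but is the preferred partner of the others, and ErbB3 has a weak kinase of its own and signals through such a partner. In peripheral nerves this pathway is known to guide neural crest cells and to keep Schwann cell precursors, the glia of embryonic nerves, alive and moving along axons.

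Members were the rows whose gene symbol was *Erbb2*, *Erbb3*, *Erbb4*, *Egfr*, *Nrg1*, *Nrg2*, *Nrg3* or *Nrg4*, which gave 8 symbols in 9 rows out of 33169 symbols in 33207 rows. The second *Nrg1* row, a gene model of 186 bases inside *Nrg1*, held 0 UMIs in both libraries, so each symbol rests on 1 row. A UMI (unique molecular identifier) marks 1 captured mRNA molecule, and levels are given as CPM, the UMIs of a gene relative to all UMIs of the same cells on the usual scale. Only the 3′ end of a transcript is read, so the isoforms of *Nrg1* cannot be told apart.

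The cells were traced cells of mouse embryos with 1 copy of *Egr2-Cre* (also called *Krox20-Cre*) and the *R26-Tomato* reporter. *Egr2* marks boundary cap cells, neural crest derivatives at the points where nerve roots meet the spinal cord, and the reporter stays on in any cell whose ancestor had the Cre. Meninges were dissected along with dorsal root ganglia and both roots, and Tomato-positive cells of 1 pooled litter were sorted for each of 2 libraries, at E11.5 and E12.5, with no Cre-negative library among the data used here. With 1 library per stage there is no replicate, so no test was made, and every interval below is a 95% interval for counting error alone.

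After the filters of the study's methods, 833 cells were left at E11.5 (median 11601 UMIs per cell) and 3496 at E12.5 (median 6140). The labels call the cells boundary cap cells of the meninges, but *Isl1*-positive neurons made up a large share of both libraries. Cells were classed by 2 genes that were not members: *Isl1*, a transcription factor of sensory neurons, and *Sox10*, a transcription factor of neural crest and glia. At E11.5, 203 cells had *Isl1* alone, 413 *Sox10* alone, 104 both and 113 neither. At E12.5 the same classes held 1337, 1213, 286 and 660 cells. Median depth was similar in the *Isl1*-positive and *Sox10*-positive cells of a stage (11595 and 12526 UMIs, then 6475 and 6088), and lower in cells with neither gene (6518 and 5155). Both libraries listed 9 barcodes in common, of which 7 were kept.

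The catalytic loop of each kinase domain is shown because ErbB3 differs there from its 3 relatives. Capitals mark the codon that reads CTC in *Erbb3* and GCC in the other 3 genes. Other parts of the kinase domain were not compared, and the part of this codon in the weak kinase was not tested. Each stretch is 30 bases of exon 21, read 5′ to 3′ on the coding strand from GENCODE release M39 transcripts on GRCm39.
Egfr, chr11:16854335-16854364, plus strand: gtgcaccgtgacttggcaGCCaggaatgta
Erbb2, chr11:98325070-98325099, plus strand: gttcacagggacctagctGCCcgaaacgtg
Erbb3, chr10:128408399-128408428, minus strand: gtgcatagggaccttgcgCTCcggaatgtg
Erbb4, chr1:68119895-68119924, minus strand: gttcatcgggatctggcaGCCcgcaatgtc

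The promoters of *Erbb2* and *Erbb4* follow, because both genes were higher in *Sox10*-positive cells. The promoter set used held 5 of the 8 members and lacked *Erbb3*, which was also higher in those cells. The promoters of *Erbb2* and *Erbb4* were searched on both strands for AACAAT, a core sequence of the kind that SOX proteins bind. Matches are in capitals. The windows are 300 bases around the start of the gene, mostly before it, from RefSeq on GRCm38.p6, a different build from that of the counts. *Erbb4* had 1 match and *Erbb2* had none, and 10.7% of the 32851 promoters in the table held at least 1. The second core searched, ACAAAG, was in neither window and in 18.7% of all promoters. A match is only a run of letters and was not measured as a binding site.
Erbb2, chr11:98412234-98412533, plus strand: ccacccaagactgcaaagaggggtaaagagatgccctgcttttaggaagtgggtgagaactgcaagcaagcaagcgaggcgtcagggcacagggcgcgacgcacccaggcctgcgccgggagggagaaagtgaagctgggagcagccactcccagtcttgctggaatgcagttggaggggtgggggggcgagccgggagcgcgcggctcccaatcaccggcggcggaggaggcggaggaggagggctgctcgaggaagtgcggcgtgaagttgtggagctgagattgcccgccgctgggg
Erbb4, chr1:69108010-69108309, minus strand: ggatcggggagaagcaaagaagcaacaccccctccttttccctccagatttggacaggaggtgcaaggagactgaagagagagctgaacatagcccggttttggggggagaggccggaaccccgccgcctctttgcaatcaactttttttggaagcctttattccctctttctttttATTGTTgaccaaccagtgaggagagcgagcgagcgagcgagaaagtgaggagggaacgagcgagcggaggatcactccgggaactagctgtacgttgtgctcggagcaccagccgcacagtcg

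On GRCm39, *Erbb3* spans 22.4 kb (chromosome 10, 128403392 to 128425811) and *Erbb2* 25.3 kb (chromosome 11, 98303203 to 98328542). *Erbb4* is a very long gene of 1076 kb (chromosome 1, 68071345 to 69147619), as are *Nrg1* with 1071 kb (chromosome 8, 32303906 to 33374825) and *Nrg3* with 1109 kb (chromosome 14, 38087063 to 39196036). *Egfr* covers 166 kb of chromosome 11 (16702198 to 16868158) and *Nrg4* 113 kb of chromosome 9 (55121336 to 55234128). Whether intronic reads were counted is not given in the sources used here, and gene length could then weigh on the counts, so levels are compared between cells and not between genes.

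Receptors and the main ligand fell on opposite sides of the neuron-to-glia split at both stages. Of the 8 members, 4 had the 100 UMIs over both classes that were asked for before a ratio was called. At each stage 3 of these, *Erbb2*, *Erbb3* and *Erbb4*, were at least 2-fold higher in *Sox10*-positive cells, and 1, *Nrg1*, was at least 2-fold higher in *Isl1*-positive cells. Among all 7658 genes with as many UMIs at E11.5, 14.5% were 2-fold higher in *Sox10*-positive cells and 8.40% in *Isl1*-positive cells. At E12.5 the shares were 18.5% and 11.6% of 10415 genes.

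**Figure D1:**
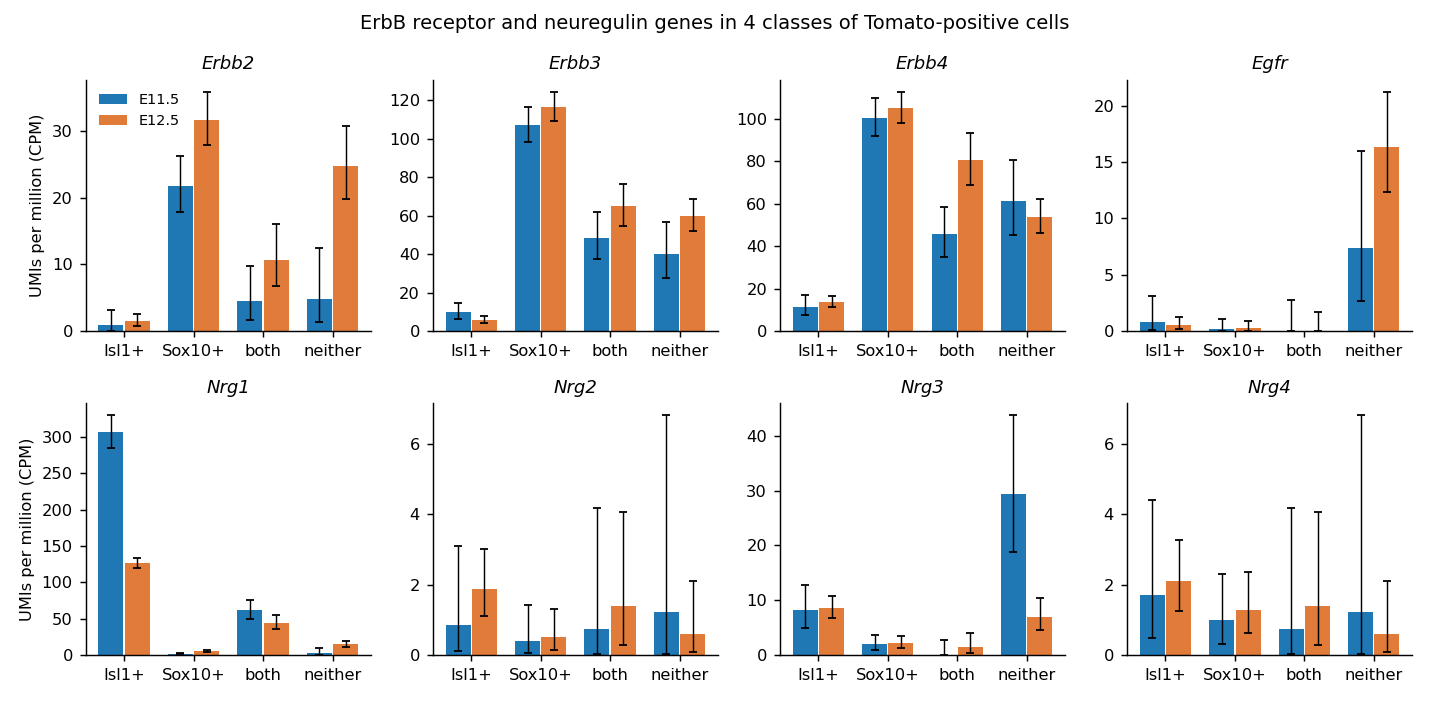
CPM of each member (vertical axis, its own scale in each panel) in *Isl1*-positive, *Sox10*-positive, doubly positive and doubly negative cells, with E11.5 in blue and E12.5 in orange. Bars are 1 library each and lines are 95% Poisson intervals, and *Erbb2*, *Erbb3* and *Erbb4* are highest in the *Sox10*-positive class while *Nrg1* is highest in the *Isl1*-positive class.

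*Erbb3*, the neuregulin receptor that relies on a partner kinase, stood at 107 CPM (98.3–116) in *Sox10*-positive cells of E11.5 and 117 (109–125) at E12.5. *Isl1*-positive cells held 9.88 (6.26–14.8) and 5.97 (4.48–7.79). The log2 ratio of *Sox10*-positive to *Isl1*-positive cells was 3.44 (2.84 to 4.11) at E11.5 and 4.29 (3.89 to 4.71) a day later. A ratio this high in glia was met by 1.61% of the genes at E11.5 and 0.845% a day later. Cells with both gate genes (48.7 and 65.1 CPM) and with neither (40.4 and 59.8) lay between, and these 2 classes overlapped in their intervals at both stages.

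After thinning each cell to 2000 UMIs, an *Erbb3* UMI was found in 16.9% (13.5–20.9) of *Sox10*-positive cells at E11.5 and 21.4% (19.0–23.8) a day later. In *Isl1*-positive cells the shares were 1.48% (0.306–4.26) and 1.39% (0.828–2.19). Without thinning, 64.9% and 48.1% of *Sox10*-positive cells had a UMI, against 7.88% and 3.59% of *Isl1*-positive cells. The gene was spread thinly over many glia, with at most 7 UMIs in a cell at E11.5 and 5 a day later.

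The *Erbb3* UMIs of *Isl1*-positive cells were not evenly placed at E11.5. There, 14 of the 23 lay in the 51 cells with the fewest UMIs, at 50.3 CPM (27.5–84.4), while the next 3 groups of about that size, in order of depth, held 1, 2 and 6 UMIs. At E12.5 the 4 such groups were alike, at 5.17 to 7.19 CPM. As a share of its level in *Sox10*-positive cells, *Erbb3* in *Isl1*-positive cells came to 9.22% at E11.5 and 5.11% a day later. Other glial genes gave like shares: *Cdh19*, a glial cadherin, 9.38% and 3.96%, and *Fabp7*, a fatty acid binding protein gene of immature glia, 8.65% and 7.24%. The part of free RNA or mixed droplets in these low levels was not tested.

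*Erbb2*, the partner that binds no ligand, was nearly limited to glia among these 2 classes. It stood at 21.7 CPM (17.9–26.2) in *Sox10*-positive cells against 2 UMIs, or 0.859 CPM (0.104–3.10), in *Isl1*-positive cells, a ratio of 25.3-fold with a counting interval of 6.84 to 212 that also holds the ratios of *Erbb3* (10.8) and *Erbb4* (8.67). At E12.5 the levels were 31.7 (27.9–35.9) and 1.55 (0.846–2.60) CPM, a log2 ratio of 4.36 (3.58 to 5.25). Cells with neither gate gene held 4.90 CPM at E11.5, below the glia, but 24.8 (19.8–30.7) at E12.5, where the interval overlapped that of the glia. In *Sox10*-positive cells *Erbb2* was 1.46-fold (1.16–1.84) higher at E12.5 than at E11.5. *Erbb3* and *Erbb4* differed by less, 1.09-fold (0.979–1.21) and 1.05-fold (0.937–1.17), with intervals that include no difference. These stage ratios compare 2 single libraries of different depth.

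*Erbb4*, a neuregulin receptor with an active kinase, was at 101 CPM (92.0–110) in *Sox10*-positive cells of E11.5 and 105 (98.3–113) at E12.5. *Isl1*-positive cells held 11.6 (7.64–16.9) and 13.8 (11.497–16.5), giving log2 ratios of 3.12 (2.56 to 3.73) and 2.93 (2.66 to 3.21). Of the 3 glial receptors it had the highest level in *Isl1*-positive cells relative to its own level in glia, with 11.53% and 13.1% in order of stage. At E12.5 this share was above those of *Cdh19*, *Fabp7* and *Erbb3* and below that of *Foxd3*, a crest and glial transcription factor, with 14.3%. Cells with both gate genes held 45.7 CPM (35.0–58.7) at E11.5 and 80.4 (68.9–93.3) a day later.

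*Egfr*, the EGF receptor that gives the family its name, was nearly missing from both lineages. *Isl1*-positive cells held 2 UMIs at E11.5 and 5 a day later, *Sox10*-positive cells held 1 and 2, and doubly positive cells held 0 at both stages, and 3 UMIs, the limit taken for a count of 0, would be 2.25 and 1.39 CPM. Most of its UMIs, 6 at E11.5 and 56 a day later, came from cells with neither gate gene, at 7.34 (2.70–16.0) and 16.3 (12.3–21.2) CPM.

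*Nrg1*, the axonal ligand, was at 307 CPM (285–330) in *Isl1*-positive cells of E11.5 and at 1.58 (0.682–3.11) in *Sox10*-positive cells, where it had 8 UMIs in 413 cells. The log2 ratio was -7.60 (-8.82 to -6.61), a ratio met towards neurons by 0.209% of the genes at that stage. At E12.5 the levels were 126 (119–134) and 5.36 (3.87–7.25) CPM, with a log2 ratio of -4.56 (-5.04 to -4.11). Of the 42 *Nrg1* UMIs of *Sox10*-positive cells at E12.5, 23.8% lay in 1 cell, and without it the level was 4.09 CPM.

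In the thinned data an *Nrg1* UMI was found in 27.1% (21.1–33.8) of *Isl1*-positive cells at E11.5 and 15.8% (13.9–17.9) a day later. The shares in *Sox10*-positive cells were 0.484% (0.0587–1.74) and 1.11% (0.590–1.88). Cells with both gate genes were intermediate in level, at 61.4 (48.9–76.3) and 44.6 (36.1–54.5) CPM. In *Isl1*-positive cells *Nrg1* was 2.43-fold (2.21–2.67) higher in CPM at E11.5 than at E12.5. This ratio compares 2 single libraries of different depth and cell make-up. Cells with *Ntrk3*, taken up below, were 21.7% of the class at E11.5 and 9.20% at E12.5. Those without it held *Nrg1* at 147 and 118 CPM. The part of make-up in the ratio was not tested. Relative to its neuronal level, *Nrg1* in *Sox10*-positive cells came to 0.515% at E11.5 and 4.25% a day later, and 6 other neuronal genes ranged from 0.749% (*Tlx3*) to 11.9% (*Elavl4*), then from 1.98% (*Tubb3*) to 7.41% (*Elavl4*). At E12.5 *Nrg1* lay within that range, and at E11.5 below it.

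*Nrg1* was concentrated in a minority of cells. At E11.5, 105 of the 203 *Isl1*-positive cells had no *Nrg1* UMI, the median of the others was 3, and the highest cell had 71. The 21 cells with the most held 66.4% of the UMIs, and for *Erbb3*, *Erbb4* and *Erbb2* the 42 *Sox10*-positive cells with the most held 33.9%, 43.0% and 55.5%. At E12.5 the highest cell had 27 UMIs and the 134 cells with the most held 61.6%. For the same receptors the top 122 glia held 37.2%, 50.9% and 63.3%. Such shares also depend on the number of UMIs per cell, so they do not rank genes by evenness. *Erbb2* had 248 UMIs in 1213 glia, at most 4 in a cell, and *Nrg1* had 1143 in 1337 *Isl1*-positive cells. The Poisson intervals given for *Nrg1* take no account of this clumping.

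*Nrg3*, a ligand of ErbB4, was detected in few cells, and its levels rest on them. At E11.5 *Isl1*-positive cells had 19 UMIs, of which 15 lay in 1 cell, and the level was 8.16 CPM with that cell and 1.73 without it, near the 1.98 of *Sox10*-positive cells. The 24 UMIs in cells with neither gate gene came from 3 cells. At E12.5 *Isl1*-positive cells held 78 UMIs in 30 cells, or 8.62 CPM (6.81–10.8), against 2.17 (1.26–3.48) in *Sox10*-positive cells, a log2 ratio of -1.99 (-2.84 to -1.22).

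*Nrg2* and *Nrg4*, the remaining neuregulins, were close to the limit of these libraries. *Nrg2* had 2 UMIs in each of the *Isl1*-positive and *Sox10*-positive classes at E11.5, and 17 and 4 at E12.5. *Nrg4* had 4 and 5 UMIs at E11.5 and 19 and 10 a day later, with a log2 ratio of -0.72 (-1.98 to 0.46) at E12.5 that does not separate the classes.

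**Figure D2:**
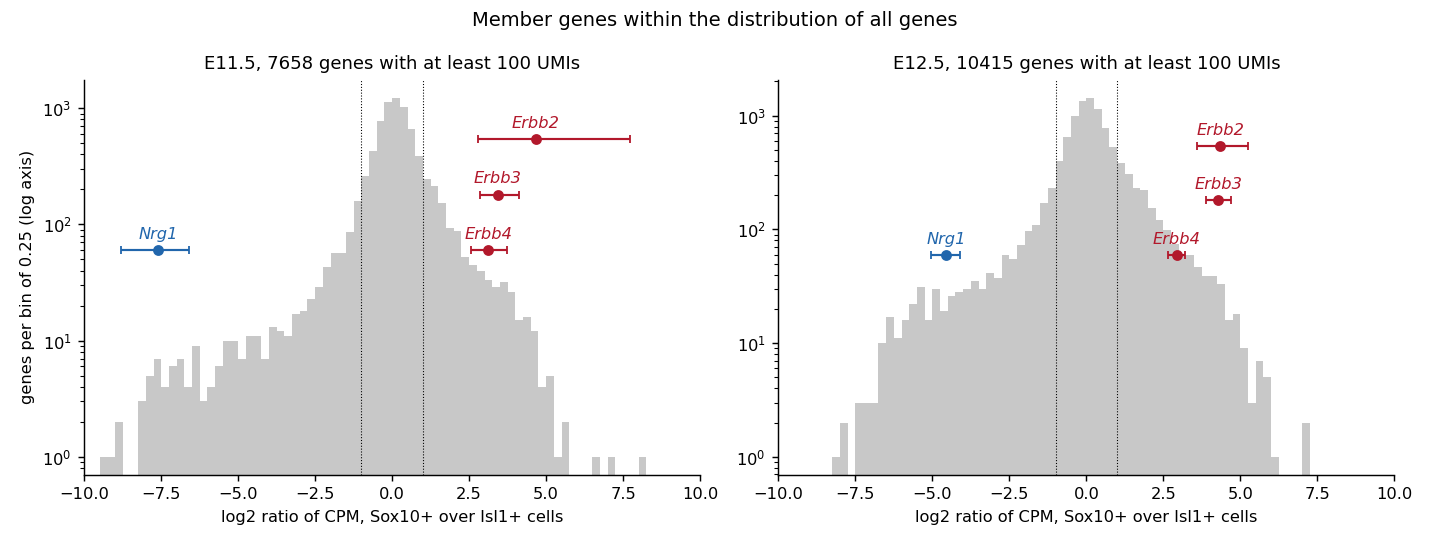
Histogram of the log2 ratio of *Sox10*-positive to *Isl1*-positive cells over all genes with at least 100 UMIs (grey, log vertical axis), with the 4 members that reached this number marked as points with 95% intervals. The height of a point carries no value, dotted lines mark 2-fold, and a gene at 0 in a class is placed at the bound set by 3 UMIs. *Nrg1* lies in the left tail at both stages and the 3 receptors lie in the right tail.

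Among *Isl1*-positive cells, *Nrg1* was higher in those with *Ntrk3*, the gene of TrkC, the receptor of proprioceptive and some touch neurons. At E11.5 the 44 cells with *Ntrk3* held *Nrg1* at 778 CPM (709–853), and 39 of them had a UMI. The 159 cells without it held 147 (129–166), so the ratio was 5.31-fold (4.55–6.21). Leaving out the cell with the most lowered the *Ntrk3* group to 679 CPM, still above the others.

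At the same 2000 UMIs per cell, 63.6% (47.8–77.6) of the cells with *Ntrk3* and 17.0% (11.499–23.7) of those without had an *Nrg1* UMI. The cells with *Ntrk3* were 21.7% of the class and carried 64.3% of its *Nrg1* UMIs. Only 6 cells had *Ntrk2*, the gene of the TrkB receptor, and all 6 had *Nrg1*, at 1609 CPM (1359–1893), while at E12.5 the 7 such cells held 142 against 126 CPM (1.12-fold, 0.484–2.22). Of the 24 cells with at least 10 *Nrg1* UMIs, 16 had *Ntrk3*, and these 24 cells were also deeper (median 15820.5 UMIs against 11595 for the class). By depth, 4 groups of the class at E11.5 held *Nrg1* at 219, 151, 254 and 463 CPM from shallowest to deepest. The part of depth in the *Ntrk3* contrast was not tested.

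At E12.5 the difference was smaller. The 123 cells with *Ntrk3* held 193 CPM (166–223) and the 1214 without it 118 (111–126), or 1.63-fold (1.39–1.91). The thinned shares did not separate these cells, with 16.4% (10.3–24.2) and 15.7% (13.7–17.96). Cells with *Runx3*, a transcription factor of TrkC neurons, held 304 CPM against 121 in those without, 2.51-fold (1.98–3.15), from 24 cells, and the 2 cells with it at E11.5 held 217 against 308 CPM (1.42-fold lower, 0.604–4.37). Cells with *Neurog1*, the proneural factor of the later sensory wave, were lower in *Nrg1* at both stages, by 1.93-fold (1.66–2.24) and 1.75-fold (1.51–2.03). From shallowest to deepest, 4 groups of *Isl1*-positive cells at E12.5 held *Nrg1* at 137, 105, 85.7 and 163 CPM. The part of depth in these contrasts was not tested.

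**Figure D3:**
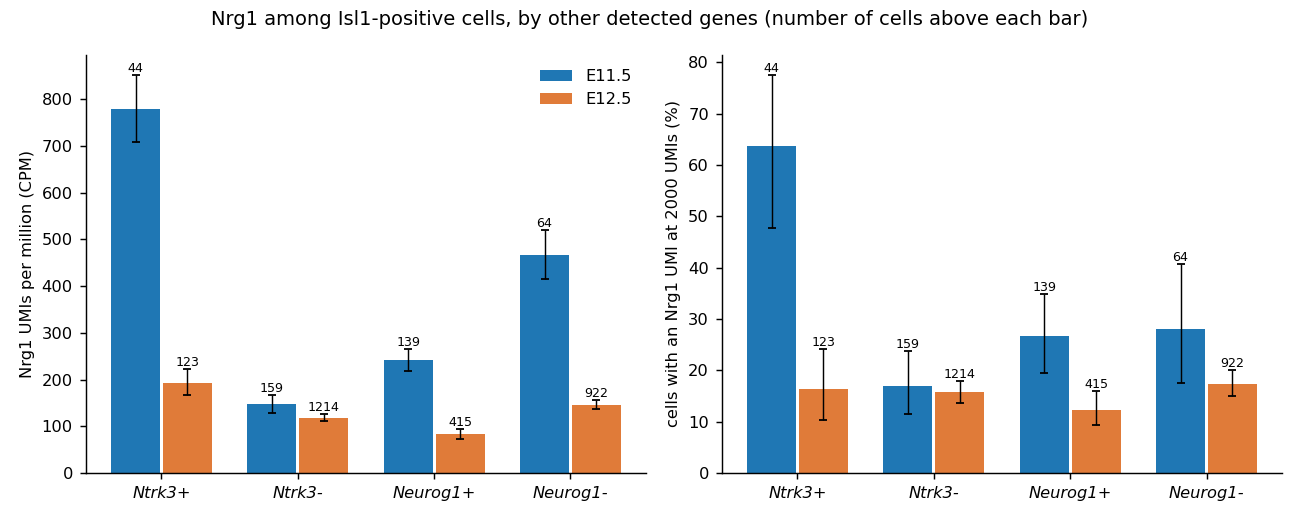
*Nrg1* in *Isl1*-positive cells split by *Ntrk3* and by *Neurog1*, as CPM with 95% Poisson intervals (left) and as the share of cells with a UMI at 2000 UMIs with 95% binomial intervals (right). Blue is E11.5, orange is E12.5 and the numbers are cells, and the tallest CPM bar is that of the 44 cells with *Ntrk3* at E11.5.

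Clusters made without the members gave the same division. They are not a separate check, because the cells were the same and *Isl1* and *Sox10* were among the markers that named clusters. At E11.5 there were 11 clusters, of which marker lists named 6 glia-like (508 cells), 4 neuron-like (264) and 1 pericyte-like (61). At E12.5 there were 15, with 6 glia-like (1683 cells), 5 neuron-like (1443), 1 mesenchymal-like (182), 1 pericyte-like (41), 1 myeloid-like (36) and 1 unnamed (111). *Erbb3* ranged from 80.9 to 264 CPM over the glia-like clusters of E11.5 and from 1.45 to 11.54 over the neuron-like ones. At E12.5 the ranges were 96.3 to 142 and 1.99 to 12.3. The glia-like value of 264 (209–329) belonged to cluster 10 at E11.5, whose 89 cells had a median of only 2840 UMIs and were led by the embryonic globin gene *Hbb-y*, and without that cluster the highest was 127 (108–150).

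*Nrg1* reached 773 CPM (705–846) in neuron-like cluster 7 of E11.5, where *Ntrk3* stood at 241 CPM, against 296 (257–340) and 116 (94.8–140) in neuron-like clusters 1 and 5. In neuron-like cluster 8, with the Notch ligand gene *Dll1* and the neurogenic factor *Insm1* among its leading genes, *Nrg1* was only 8.65 (3.96–16.4), and *Erbb4* was 41.3 (29.9–55.7), with UMIs in 24 of 68 cells. This cluster held 34 of the 104 cells with both gate genes, and *Neurog1* stood at 348 CPM there. Its name rested on 3 of 15 neuron markers, the fewest of the neuron-like clusters of E11.5. Its *Erbb3* was 11.54 (5.96–20.2). In value it lay below every glia-like cluster in both receptors, but its *Erbb4* interval overlapped those of glia-like clusters 4, 9 and 10, at 69.3 (55.6–85.2), 51.2 (35.5–71.6) and 50.1 (28.1–82.7).

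A pair of E12.5 clusters, both with *Dll1* among the leading genes, had a like profile. Neuron-like cluster 11, named on 4 of 15 neuron markers, held *Nrg1* at 27.4 CPM (18.3–39.3), *Erbb4* at 30.2 (20.7–42.6) and *Erbb3* at 12.3 (6.53–20.98). The unnamed cluster 10, led by *Plcb1*, *Dll1* and *Oprk1* and also holding *Neurog1* among its leading genes, had 15.9 (7.62–29.2), 55.6 (38.8–77.4) and 35.0 (21.9–52.9). In the other neuron-like clusters of E12.5 *Nrg1* ran from 93.4 to 232 CPM and *Erbb4* from 3.13 to 9.44. The highest *Nrg1*, 232 (214–251), was in cluster 1, which also held 69 of the *Nrg3* UMIs at 26.4 CPM (20.5–33.4).

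**Figure D4:**
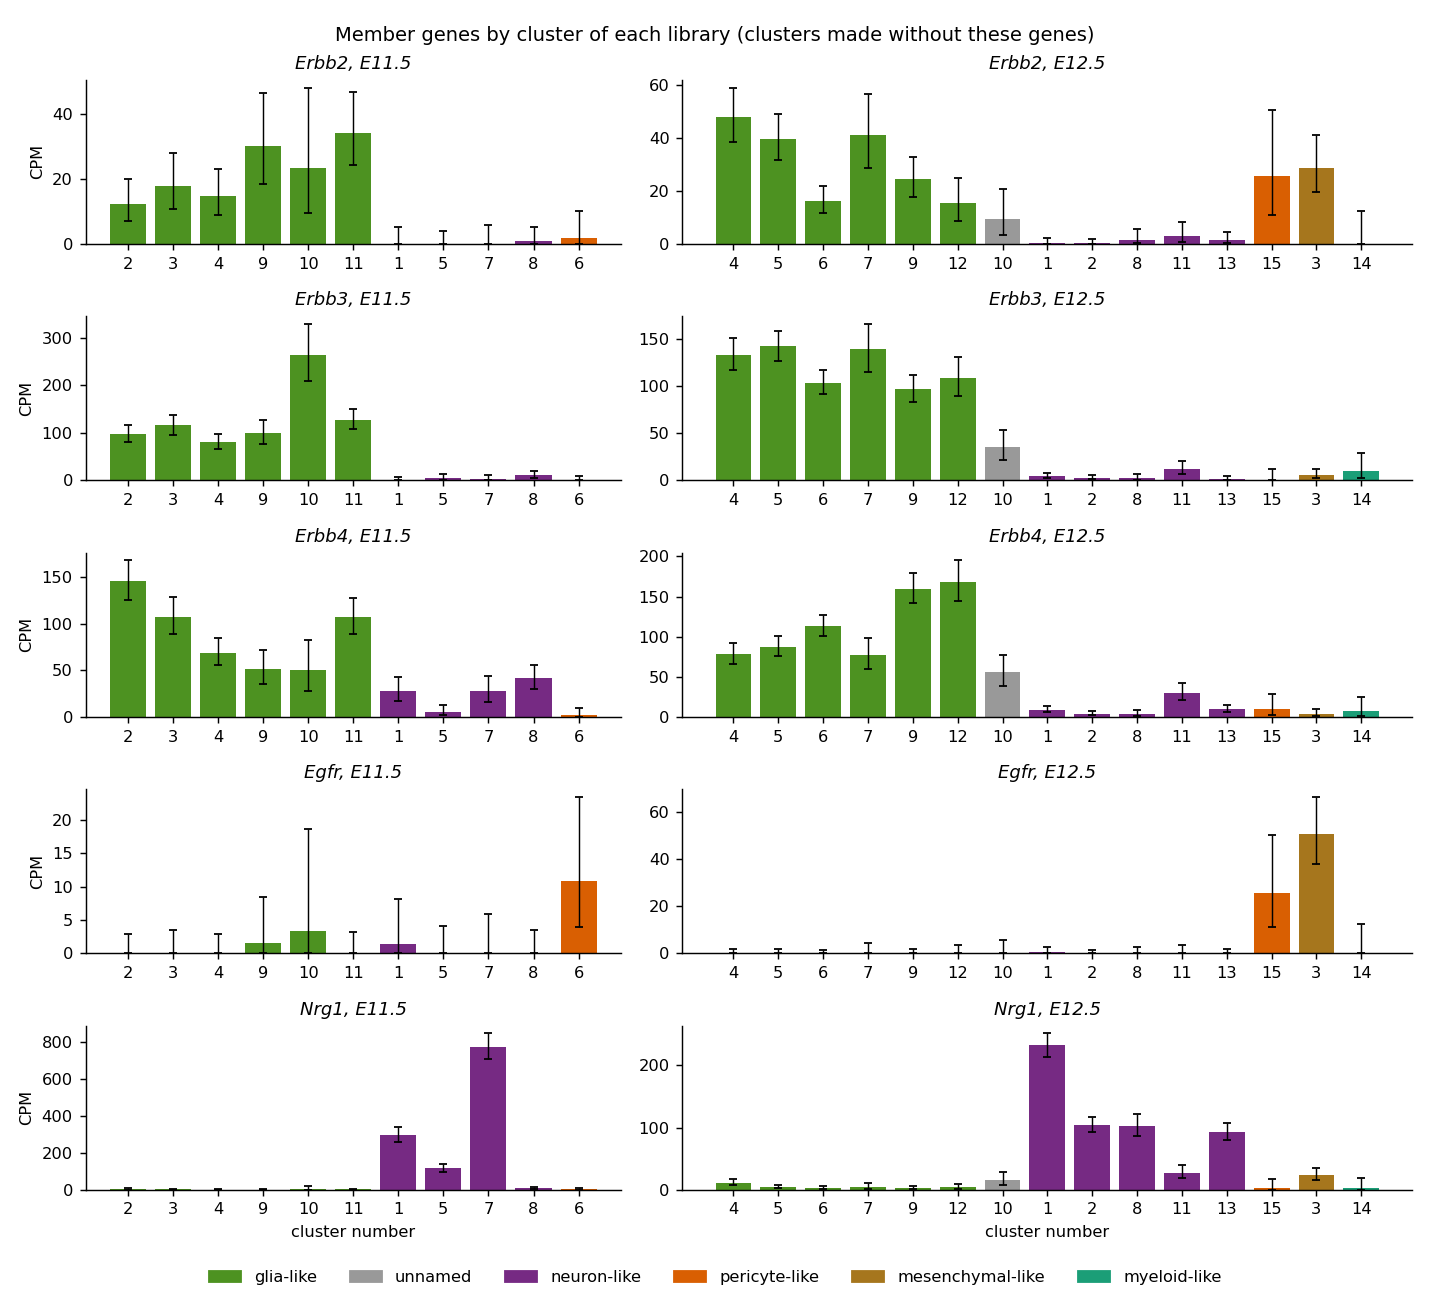
CPM of 4 receptor genes and *Nrg1* in each cluster of the E11.5 (left) and E12.5 (right) libraries, ordered and coloured by the name of the cluster, with 95% Poisson intervals. Green glia-like bars carry *Erbb2*, *Erbb3* and *Erbb4*, purple neuron-like bars carry most *Nrg1* except in cluster 8 of E11.5 (8.65 CPM) and cluster 11 of E12.5 (27.4 CPM), and *Egfr* stands out in the brown mesenchymal-like bar of E12.5 at 50.9 CPM.

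Over the glia-like clusters, sorted by *Hes5*, *Erbb2* and *Erbb4* varied in opposite directions at E12.5. In single *Sox10*-positive cells the pair was found together about as often as the separate shares give, with values below. Glia-like clusters 4, 5 and 7, with the Notch target *Hes5* at 0.912 to 2.67 CPM, held *Erbb2* at 39.7 to 48.0 CPM and *Erbb4* at 77.3 to 87.6. Clusters 6, 9 and 12, with *Hes5* at 46.0 to 87.6 CPM, held *Erbb2* at 15.3 to 24.5 and *Erbb4* at 114 to 168. In neither gene did the values of the 2 sets of clusters overlap. At E11.5 clusters 9 and 11, with *Hes5* at 1.51 and 4.40 CPM, had *Erbb2* at 30.1 and 34.3 against 12.4 to 17.9 in clusters 2, 3 and 4, where *Hes5* was at 9.43 to 15.6, but *Erbb4* of cluster 11 (107) lay within the range of those 3 (69.3 to 146). The shallow cluster 10 of E11.5 went against the pattern, with *Hes5* at 13.4 CPM, *Erbb2* at 23.4 (9.41–48.2) and *Erbb4* at 50.1. Median depth at E12.5 was 4348, 7518 and 5179.5 UMIs in clusters 4, 5 and 7, and 5959, 8676 and 5620 in clusters 6, 9 and 12. These clusters were drawn from the same cells and serve as a description.

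The same contrast was sought with single genes that split the *Sox10*-positive cells. *Erbb2* was lower in cells with a *Hes5* UMI, at 19.1 against 33.7 CPM at E12.5, a difference of 1.77-fold (1.13–2.91), and at 13.1 against 22.7 CPM at E11.5, where the interval of the fold (0.811–4.42) includes 1. *Erbb4* was higher in cells with *Hes5* at both stages, 1.44-fold (1.11–1.85) and 1.23-fold (1.02–1.48). At 2000 UMIs per cell the shares with an *Erbb2* UMI were 3.73% (1.22–8.49) with *Hes5* and 6.53% (5.11–8.21) without at E12.5, with overlapping intervals. Over 4 groups of *Sox10*-positive cells of rising depth at E12.5, *Erbb2* was at 56.0, 27.5, 28.8 and 28.1 CPM. The part of depth in the *Hes5* contrast was not tested.

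Cells with *Egr2*, the gene that drove the Cre, held *Erbb2* at 44.9 against 28.9 CPM at E12.5 (1.56-fold, 1.15–2.09) and at E11.5 the interval of the fold included 1 (21.04 against 22.03, 1.05-fold lower, 0.686–1.63). For *Prss56*, a protease gene of boundary cap cells, *Erbb3* was 1.30-fold (1.09–1.55) and *Erbb4* 1.37-fold (1.14–1.64) higher in positive cells at E11.5, and 1.12-fold and 1.14-fold higher at E12.5, with intervals that reach below 1.

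*Erbb3* was lower in *Sox10*-positive cells with the proneural gene *Neurog1*, at 78.2 against 114 CPM at E11.5 and 83.8 against 120 a day later, or 1.46-fold (1.14–1.89) and 1.43-fold (1.10–1.90). *Erbb4* differed by 1.07-fold at both stages, with intervals that include 1. At 2000 UMIs the E11.5 share for *Erbb3* ran the other way, with 22.9% (13.7–34.4) in *Neurog1*-positive and 15.7% (12.1–20.04) in *Neurog1*-negative cells, so no order is read from that stage. *Neurog1*-positive cells were deeper, at a median of 14627.5 against 12264 UMIs, and *Erbb3* was at its highest CPM, 169 (132–213), in the 103 shallowest of the E11.5 glia. *Erbb4* was higher in cycling *Sox10*-positive cells, those with 2 or more of 6 mitotic genes, at E12.5 (116 against 86.1 CPM, 1.34-fold, 1.15–1.57), while at E11.5 the difference was 1.10-fold (0.798–1.54). Over 4 groups of these cells of rising depth *Erbb4* was at 104, 83.7, 107 and 116 CPM at E12.5, and the part of depth was not tested.

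**Figure D5:**
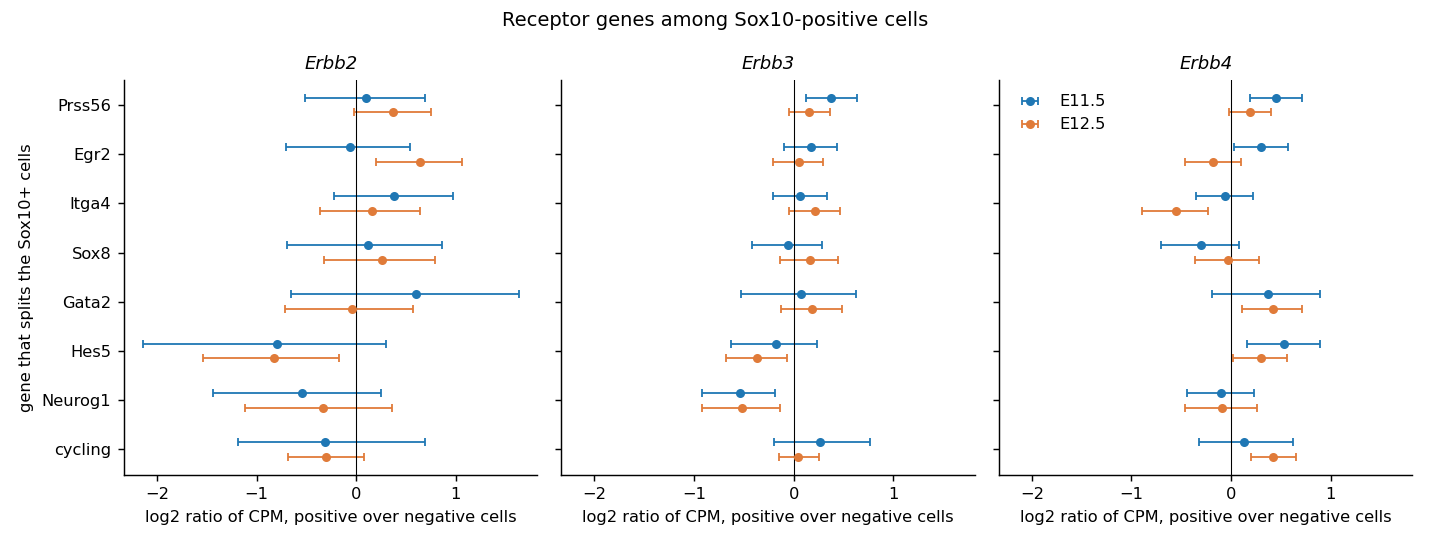
Log2 ratio of CPM between *Sox10*-positive cells with and without a UMI of the gene on the vertical axis, for *Erbb2*, *Erbb3* and *Erbb4*, with 95% intervals for counting error, E11.5 in blue and E12.5 in orange. Values right of 0 are higher in positive cells, and *Hes5* lies left of 0 for *Erbb2* and right of 0 for *Erbb4* at both stages.

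Receptors were found together in single glia in shares near the products of their separate shares, and above them in value without thinning. At E11.5, 69 of 413 *Sox10*-positive cells had both *Erbb2* and *Erbb3*, 16.7% (13.2–20.7), and the product of the separate shares was 14.3%. At E12.5 it was 8.82% (7.29–10.6) with a product of 8.44%. *Erbb3* with *Erbb4* gave 36.1% (31.4–40.9) against 33.5% at E11.5 and 19.7% (17.5–22.1) against 17.5% a day later. *Erbb2* with *Erbb4* gave 13.6% (10.4–17.2) against 11.4%, then 6.76% (5.41–8.32) against 6.40%. After thinning, *Erbb2* with *Erbb3* gave 1.45% against 0.903%, then 1.11% against 1.33%. *Erbb2* with *Erbb4* then gave 1.21% against 0.864% at E11.5 and 0.851% against 1.03% at E12.5. None of the 3 receptors was found in 16.9% and 29.9% of the *Sox10*-positive cells, and after thinning in 67.6% and 60.9%.

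Ligand and receptor were seen together in few cells. In *Isl1*-positive cells without thinning, the shares with both genes lay below the products of the separate shares in value. Every interval included its product. These intervals cover the joint count alone and make no allowance for the separate shares, so departure from the product was not tested. Among *Isl1*-positive cells 3 of 203 at E11.5 had both *Nrg1* and *Erbb3*, and 13 of 1337 at E12.5. These were 1.48% (0.306–4.26) and 0.972% (0.519–1.66), against products of 3.80% and 1.27%. For *Nrg1* with *Erbb4* the numbers were 4 and 29, or 1.97% (0.539–4.97) and 2.17% (1.46–3.10) against 3.80% and 2.36%. In the doubly gated cells, where both genes were detected, 2 of 104 cells at E11.5 and 7 of 286 a day later had *Nrg1* with *Erbb3*. The shares, 1.92% (0.234–6.77) and 2.45% (0.990–4.98), lay below the products of 6.68% and 4.68% in value, but both intervals reached above them. For *Nrg1* with *Erbb4* there were 3 such cells at each stage, and at E12.5 the share, 1.05% (0.217–3.03), had an interval wholly below the product of 4.21%. After thinning it was 0 of 282 cells, with an interval of up to 1.30% that includes the product of 1.05%. The 286 doubly gated cells also lay in clusters of different kinds, with 135 in glia-like ones.

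Traced cells that were neither neuron-like nor glia-like had another pattern. The mesenchymal-like cells of E12.5 held *Egfr* at 50.9 CPM (38.1–66.6), with 53 UMIs in 44 of 182 cells, and *Erbb2* at 28.8 (19.4–41.1), a level that overlapped that of the glia-like cells, 30.3 (27.0–33.8). *Erbb3* (5.76) and *Erbb4* (3.84) were low there. These cells also had *Nrg1* at 24.0 (15.5–35.4) and *Nrg3* at 19.2 (11.7–29.7) CPM. Pericyte-like cells held *Egfr* at 10.8 (3.96–23.5) at E11.5 and 25.6 (11.04–50.4) a day later. The glia-like cells had 2 *Egfr* UMIs in 508 cells at E11.5 and 0 in 1683 a day later. Of the cells with neither gate gene, 57 of 113 at E11.5 were pericyte-like and 47 glia-like, and at E12.5 339 of 660 were glia-like and 158 mesenchymal-like.

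The rest of the pathway was taken from 5 lists. Over all genes, 14.5% at E11.5 and 18.5% at E12.5 were 2-fold higher in glia, and 8.40% and 11.6% in neurons. The lists of other ligands, regulators and proteases had at most 8 measured genes, too few to set their counts apart from these shares. Among ERK-responsive and feedback genes, which report or restrain signalling below receptor kinases, 6 of 9 measured at E11.5 and 5 of 10 a day later were 2-fold higher in *Sox10*-positive cells and 0 were 2-fold higher in *Isl1*-positive cells. Their median log2 ratio was 1.78 and 0.74, against 0.12 and 0.11 for all genes. *Dusp6*, an ERK phosphatase, was at 80.2 CPM in glia and 9.45 in neurons at E11.5, and at 84.3 and 6.19 at E12.5. *Etv4*, an ETS transcription factor, had log2 ratios of 3.90 and 2.62, and *Fos*, an immediate early gene that dissociation of tissue can also induce, 1.83 and 2.60.

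Among 8 receptor regulators, 2 were 2-fold higher in glia and 2 in neurons at each stage. *Lrig1*, a membrane protein that lowers ErbB levels, had log2 ratios of 2.36 and 2.85, and *Lrig3*, a relative of it, 1.19 and 1.12. *Rnf41*, the ubiquitin ligase that turns over ErbB3, was higher in neurons at -1.35 and -1.06, as was *Lrig2* at -1.36 and -1.22. Of the other EGF-family ligands, 3 of 9 were measured. *Hbegf*, a ligand of EGFR and ErbB4, was at 37.7 CPM in glia and 1.72 in neurons at E11.5 and at 58.2 and 3.09 a day later, while *Tmeff1*, a membrane protein with an EGF-like domain, was higher in neurons at -1.24 and -1.57.

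The proteases that shed or process ligands gave 1 of 5 measured genes 2-fold higher in glia at E11.5, and 2 of 7 in glia and 1 in neurons at E12.5. *Adam17*, a sheddase, was higher in glia at both stages, with log2 ratios of 1.32 and 1.33. The gene higher in neurons at E12.5 was *Adam19*, at 24.0 CPM in neurons and 2.55 in glia, a log2 ratio of -3.23 (-3.97 to -2.57). At E11.5 *Adam19* had under 100 UMIs over both classes. Of the adaptors and kinases, 4 of 19 were 2-fold higher in glia and 1 in neurons at E11.5, and 3 of 20 and 2 at E12.5, shares near those of all genes. Named by size they were *Map2k1* (1.83 and 2.08), *Gab1* (1.60 and 1.71) and *Pik3r1* (1.16 and 1.13), and *Shc1* on the neuronal side (-1.01 and -1.04).

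Over the clusters, each member was set beside 8459 genes by the mean Pearson correlation of log2(CPM + 10) in 11 and 15 clusters. Clusters of a library share its depth and its cells, so these values only describe the pattern. The genes closest to *Erbb3* included *Fhdc1* (0.983) and *Slitrk2* (0.958), and *Erbb2* was closest to *Limch1* (0.951), *Egflam* (0.940) and *Matn2* (0.930). *Erbb4* was closest to *Fam181b* (0.927), *Nell2* (0.918) and *Adamts20* (0.907). *Nrg1* was closest to the synaptic gene *Snap25* (0.974), then *Nkain3* (0.967) and *Ralgds* (0.964).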

How the data were processed

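Single-cell libraries were prepared with the 10x 3′ V2 kit. The authors made the deposited counts with Cell Ranger (7.0 in the labels, 7.0.1 in the file headers) on an mm39 reference, as whole numbers of UMIs per gene and called barcode, not normalized. Of 1431 and 3762 barcodes with 10287595 and 23460243 UMIs, those with over 10% mitochondrial UMIs, under 2000 (E11.5) or 1000 (E12.5) UMIs, or a Scrublet score of 0.2 or more (scanpy 1.11.5) were removed.

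Members, lists and gates were chosen with earlier results of these data known. UMIs were summed per class and scaled to CPM, with exact Poisson, binomial (Clopper-Pearson) and conditional intervals at 95% (scipy 1.17.1), which cover counting error only. Cells were thinned to 2000 UMIs in 1 draw, and 165 kept cells of E12.5 fell below this depth. Clusters came from 3000 variable genes without the members, 30 principal components, 15 neighbours and Leiden resolution 1 (igraph 0.11.9), and were named from marker lists. Named pathway genes were the up to 3 per list with the largest ratio each way among those past 2-fold the same way at both stages with at least 100 UMIs in each. *Adam19*, measured at E12.5 only, was named besides these. The gate gene *Ret* split no *Isl1*-positive cells. In simulated data with 200 changed genes the ratio had the right direction for 100% of them, and its intervals held the true value for 95.6% of 7658 genes (E11.5) and 95.7% of 10415 (E12.5). The simulated sums were Poisson counts with no spread between cells, which the intervals also assume. This checks the calculation only and cannot show whether the intervals are wide enough for clumped counts. There were 19 preset alternatives. Results for some genes are not reported here.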

Additional observations from a re-analysis of the deposited data

Results flagged for a closer look

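Barcodes that the filters removed also held member UMIs, which no comparison above used. In the 598 removed barcodes of E11.5 the levels were 40.2 CPM for *Erbb2*, 195.8 for *Erbb3*, 156.9 for *Erbb4*, 69.7 for *Nrg1* and 36.2 for *Nrg3*. In the 266 removed barcodes of E12.5 they were 23.9 for *Erbb2*, 77.7 for *Erbb3*, 67.8 for *Erbb4*, 83.7 for *Nrg1*, 3.99 for *Egfr* and 3.99 for *Nrg4*. Each of these counts was above 3 UMIs. At E11.5 the interval of *Erbb3* (165–230) lay above that of the kept *Sox10*-positive cells (98.3–116), and of these barcodes 412 had been removed for low UMIs and 179 for their mitochondrial share. The part of low depth in this level was not tested.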

How the results depend on the processing

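No setting tried turned the direction of the *Erbb3* or *Nrg1* ratio. The log2 ratio of *Erbb3* moved at E11.5 from 3.44 to 5.26 with 2 gate UMIs, 4.19 with named clusters, 4.96 with summed marker lists, 2.16 with doubly positive cells counted as *Isl1*-positive and 2.65 as a mean of CPM per cell, and at E12.5 from 4.29 to 5.02, 4.89, 5.12 and 2.75 under the first 4 of these. That of *Nrg1* moved at E12.5 from -4.56 to -4.02 with thinned cells. Shares of cells with a UMI depend on depth by construction. Without thinning, with 2 times as many UMIs kept per cell, and with 2 UMIs asked for, the *Nrg1* share of *Isl1*-positive cells was 48.3%, 38.3% and 11.8% at E11.5 and 35.5%, 27.2% and 3.95% at E12.5, and the *Erbb3* share of *Sox10*-positive cells was 64.9%, 29.3% and 2.18%, then 48.1%, 35.7% and 2.89%. Genes past 2-fold (1109 and 643 at E11.5, 1930 and 1205 at E12.5, glial then neuronal) became 2502, 1620, 3566 and 2239 from 10 UMIs up, 402, 285, 789 and 600 at 4-fold, and 659 for the first with the whole interval past 2-fold. The other 28 *Erbb3* and *Nrg1* ratios stayed within their 95% interval. With Spearman's rho 1, 1, 1 and 0 of the 3 closest genes of *Erbb2*, *Erbb3*, *Erbb4* and *Nrg1* were kept. No paired analysis was possible because each stage is 1 library from 1 pooled litter. *Egfr*, *Nrg2*, *Nrg3* and *Nrg4* had under 100 UMIs over both classes at each stage, too few for a call.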
